A study of Mus musculus with 7 samples.

Results

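Olig1, Olig2, Lhfpl3, Cspg4, Nkx2-2 and Ptprz1 are 6 genes used in the brain and spinal cord as signs of the oligodendrocyte lineage, and they were followed here across 7 RNA-seq libraries of mouse neural crest-derived cells. They are 6 of the 27179 genes in the deposited table, found by Entrez identifier and symbol. The members were selected on their measured CPM in these same 7 libraries, so their levels and ratios are given as a description.

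All cells came from Wnt1-Cre;tdTomato mice, in which Cre driven by Wnt1 switches on the red reporter tdTomato in cells that descend from the neural crest. Each library was made from RNA of about 50000 cells, pooled equally from 3 mice aged 1 month, 2 female and 1 male. Every group had 1 library, so no difference below has a replicate check and no p-value is given. Adipose neurospheres were cells of subcutaneous fat grown for 10 days as mixed spheroids, sorted for tdTomato and grown for 10 days more. Bowel M2 neurospheres were made in the same way from the muscle layer and myenteric plexus of the small bowel. Bowel M1 neurospheres were sorted for tdTomato straight after digestion of the bowel and grown for 10 days. Bowel spheroid cells, tdTomato-positive or tdTomato-negative, were sorted from mixed spheroids after 10 days of culture. Adipose primary and bowel primary cells were tdTomato-positive cells sorted fresh from each tissue without culture. The culture medium held heparin together with EGF and basic FGF.

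Oligodendrocytes, the myelin-forming cells of the central nervous system, normally descend from the neuroepithelium of the neural tube and not from the neural crest. In the ventral neural tube, Sonic hedgehog signalling turns on the basic helix-loop-helix factors Olig1 and Olig2 and the homeodomain factor Nkx2-2, and SOX10 acts with them as precursors form. The crest gives rise instead to Schwann cells, enteric glia and enteric neurons. Cspg4 encodes the NG2 proteoglycan, which marks oligodendrocyte precursors and also pericytes. Ptprz1 encodes a receptor-type tyrosine phosphatase that binds pleiotrophin and tenascins, and Lhfpl3 encodes a tetraspan membrane protein.

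Totals ranged from 51885106 to 65301500 reads, and 1 read was worth between 0.0153 and 0.0193 CPM, a unit that scales reads to a common library size. The bowel primary library stood apart. Genes of pancreatic acinar cells took 5.77% of its reads, against at most 0.000665% in the other libraries, and its 8 smooth muscle markers summed to 25389 CPM, against 69.9 to 480 CPM elsewhere. Its 7 macrophage markers summed to 4215 CPM, against 27.8 to 1667 CPM elsewhere, and its 10 pericyte markers to 3648 CPM, against at most 955 CPM. It is the shared denominator of all 3 bowel comparisons of culture with fresh cells, which are therefore not independent of each other. With acinar genes left out before scaling, every count of members given below was the same. In bulk RNA, fewer cells of a type and less RNA per cell cannot be told apart. Counting intervals, here at 95%, cover counting error only, because reads amplified without molecular identifiers can be copies of 1 molecule.

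Olig2 (Entrez 50913) lies on the plus strand of chromosome 16 at 91225550 to 91228677 of GRCm38, and Olig1 (50914) lies downstream on the same strand at 91269769 to 91271939. The end of Olig2 and the start of Olig1 are 41091 bases apart. Lhfpl3 (269629) spans chromosome 5 from 22746054 to 23275597, Cspg4 (121021) chromosome 9 from 56865104 to 56899870, and Ptprz1 (19283) chromosome 6 from 22875315 to 23052916. Nkx2-2 (18088) lies on the minus strand of chromosome 2 at 147176485 to 147195434. The sources do not state whether counting used strand. Lhfpl3 overlaps the counted gene A930003O13Rik, which reached at most 2.31 CPM, and Nkx2-2 overlaps its antisense gene Nkx2-2os, which reached at most 1.08 CPM, so low values of Lhfpl3 and Nkx2-2 are uncertain.

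RefSeq's promoter table for GRCm38.p6 held 5 of the 6 members, and the 250 bases before the transcript start it gives were searched. That start is not always the outermost one of the gene. In the GENCODE annotation an earlier Olig2 exon takes up the last 93 bases of the Olig2 window and an earlier Cspg4 exon the last 71 bases of the Cspg4 window. The last 187 bases of the Ptprz1 window and the whole Nkx2-2 window lie inside the RefSeq span of their gene. The sequence before any annotated base of the gene is shown for Olig2 and Lhfpl3 alone. Both were called higher in all 3 bowel cultures than in bowel primary cells. So were Olig1, which the promoter table did not hold, and Cspg4, whose sequence is not shown. Sequences run 5′ to 3′ on the plus strand, which is the gene's strand, and capitals mark matches to 3 motifs searched on both strands. These are the E-box CANNTG, which reads the same on the opposite strand, the SOX core ACAAT, whose opposite strand reads ATTGT, and the motif CCAAT, whose opposite strand reads ATTGG. The Olig2 stretch of 157 bases is at chr16:91225300-91225456, and the Lhfpl3 stretch of 250 bases is at chr5:22745804-22746053.
Olig2: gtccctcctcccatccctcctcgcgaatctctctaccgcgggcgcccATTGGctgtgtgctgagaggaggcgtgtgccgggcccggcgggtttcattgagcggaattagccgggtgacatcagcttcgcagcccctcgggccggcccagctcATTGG
Lhfpl3: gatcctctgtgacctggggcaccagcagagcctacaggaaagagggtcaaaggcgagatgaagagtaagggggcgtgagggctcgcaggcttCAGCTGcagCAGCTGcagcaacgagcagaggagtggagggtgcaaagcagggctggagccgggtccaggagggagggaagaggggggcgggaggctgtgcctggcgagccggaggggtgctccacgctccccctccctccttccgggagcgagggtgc

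The E-box was in 66.2% and the SOX core in 27.7% of 32851 RefSeq windows of this length. The Olig2 window held no E-box and 1 SOX core, which began 67 bases before the RefSeq start. The motif TATAAA, also searched on both strands and present in 12.4% of windows, was found 8 bases before that start. Both lie in the 93 bases that GENCODE gives to an earlier exon and are therefore not printed above. The motif CCAAT, present in 33.8% of windows, was found 203 and 98 bases before the RefSeq start, ahead of both annotated starts. Lhfpl3 held 2 E-boxes, 158 and 149 bases before the start, and no SOX core. Ptprz1 held neither motif, Nkx2-2 held 3 E-boxes and 1 SOX core, and the Cspg4 window held 1 SOX core at its far end, 250 bases before the start. No match overlapped a match of another motif. The windows of Olig2, Lhfpl3 and Ptprz1 had a GC content of 66.8%, 67.2% and 71.6%, against a median of 52.4% over all windows. A match is a description of letters and not a site, and a window without a match says nothing of the factor.

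Of the transcription factors, Olig1 had 8.16 CPM in adipose neurospheres, 132 CPM in bowel M2 neurospheres, 56.6 CPM in bowel M1 neurospheres and 62.7 CPM in tdTomato-positive spheroid cells. In the remaining libraries it had 0.170 CPM (11 reads) in tdTomato-negative spheroid cells, 0.250 CPM (16 reads) in adipose primary cells and 0.104 CPM (6 reads) in bowel primary cells. All 4 crest-derived cultures were therefore above all 3 other libraries, whose own counting intervals overlapped. Among the cultures, adipose neurospheres were lowest and M2 neurospheres highest, and no neighbouring intervals in that order overlapped.

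Olig2, which is needed to specify oligodendrocyte precursors in the spinal cord, had 27.3 CPM in M2 neurospheres, 15.8 CPM in M1 neurospheres and 9.64 CPM in tdTomato-positive spheroid cells. It had 2 reads in adipose neurospheres, 2 in tdTomato-negative spheroid cells, 0 in adipose primary cells (3 reads would be 0.0469 CPM) and 14 in bowel primary cells, or 0.243 CPM. Olig2 was thus high in the 3 bowel crest cultures and near the floor in adipose neurospheres, where Olig1 was not. The ratio of Olig1 to Olig2 reads was 4.84 in M2 neurospheres, 3.59 in M1 neurospheres and 6.51 in tdTomato-positive spheroid cells. It was 252 in adipose neurospheres, with a wide interval of 69.3 to 2082 that rests on the 2 Olig2 reads. In bowel primary cells the ratio was 0.429 with an interval of 0.135 to 1.19, on 6 and 14 reads.

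Nkx2-2 did not reach 1 CPM in any library and so was not measured in any comparison. It had 25 reads in adipose neurospheres, 0 in M2 neurospheres, 11 in M1 neurospheres, 7 in tdTomato-positive spheroid cells, 0 in tdTomato-negative spheroid cells, 15 in adipose primary cells and 21 in bowel primary cells. Its highest level, 0.406 CPM in adipose neurospheres, and its second, 0.364 CPM in bowel primary cells, had overlapping intervals. So did every other pair of neighbours in the order. Libraries further apart could separate. The interval of adipose neurospheres (0.263 to 0.599 CPM) lay above that of tdTomato-positive spheroid cells (0.0436 to 0.223 CPM). It also lay above those of M2 neurospheres (0 to 0.0565 CPM) and tdTomato-negative spheroid cells (0 to 0.0570 CPM). M2 neurospheres had 0 reads, where 3 reads, the floor used for a count of 0, would be 0.0459 CPM, in the library where Olig1 and Olig2 were highest. At this depth Nkx2-2 therefore did not mark the cultured crest cells.

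Of the membrane proteins, Lhfpl3 had 69.6 CPM in M2 neurospheres, 11.5 CPM in M1 neurospheres, 21.6 CPM in tdTomato-positive spheroid cells and 2.40 CPM in tdTomato-negative spheroid cells. It had 4 reads in adipose neurospheres, 0 in adipose primary cells and 4 in bowel primary cells. It resembled Olig2 in being high in the bowel crest cultures and near the floor in both adipose libraries. Unlike Olig1 and Olig2, it also had 155 reads in tdTomato-negative spheroid cells.

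Cspg4 had the narrowest fold range of the 5 members that reached 1 CPM. It had 103 CPM in adipose neurospheres, 191 CPM in M2 neurospheres, 278 CPM in M1 neurospheres and 255 CPM in tdTomato-positive spheroid cells. Its levels were 154 CPM in tdTomato-negative spheroid cells, 71.3 CPM in adipose primary cells and 22.6 CPM in bowel primary cells. Every cultured library, crest-derived or not, was above both fresh libraries, and all neighbours in the order of CPM were separated. The order among cultures depended on scaling. With the scaling used for the ratios below, tdTomato-positive spheroid cells (251 CPM) were above M1 neurospheres (224 CPM). Likewise, tdTomato-negative spheroid cells (179 CPM) were then above M2 neurospheres (174 CPM).

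Ptprz1 had 29.8 CPM in adipose neurospheres, 423 CPM in M2 neurospheres, 806 CPM in M1 neurospheres and 408 CPM in tdTomato-positive spheroid cells. It had 1.93 CPM in tdTomato-negative spheroid cells, 153 CPM in adipose primary cells and 102 CPM in bowel primary cells. In M1 neurospheres it was the gene ranked 94 from the top of the library. Unlike the Olig genes and Lhfpl3, it was already abundant in both fresh libraries, and adipose neurospheres had less of it than adipose primary cells.

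**Figure D1:**
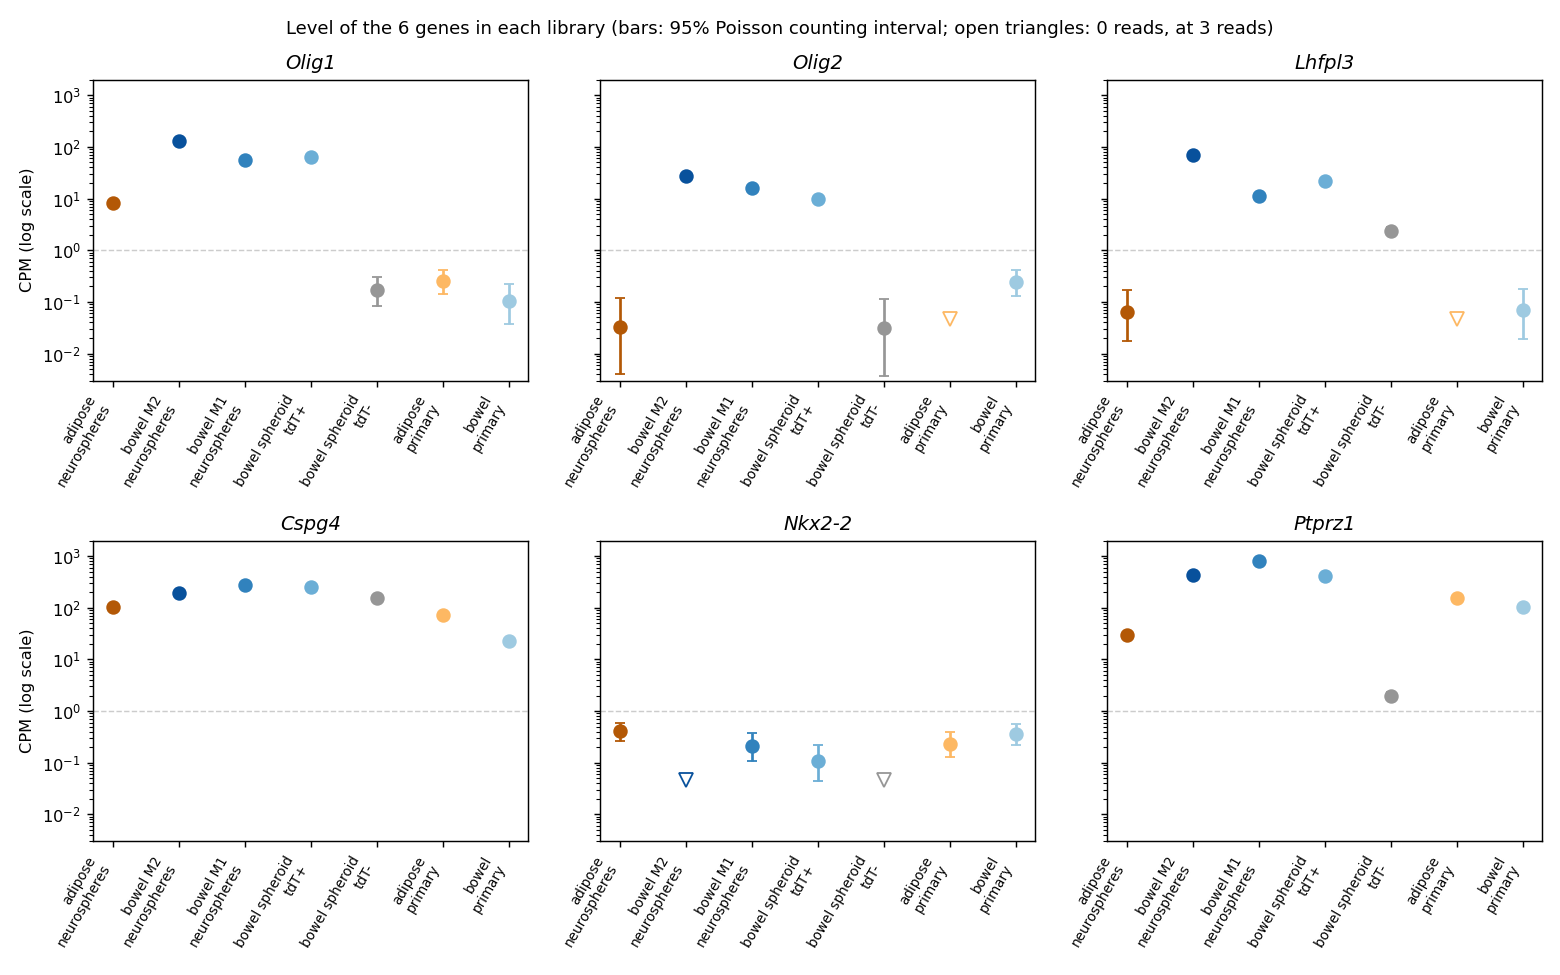
Level of each of the 6 genes in the 7 libraries, in CPM on a log axis, with bars for the 95% counting interval and open triangles, at 3 reads, for 0 reads. Olig1 sits between 8.16 and 132 CPM in the 4 crest-derived cultures and at or under 0.250 CPM in the other 3 libraries, while Nkx2-2 stays under 1 CPM in all 7.

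Per kilobase of exon (RPKM, from the GENCODE exon lengths of GRCm38), levels can be compared between members. In M2 neurospheres Olig1 was highest at 61.0 RPKM, before Ptprz1 at 29.7, Lhfpl3 at 21.7, Cspg4 at 16.0 and Olig2 at 10.8 RPKM. In M1 neurospheres Ptprz1 was highest at 56.6 RPKM, before Olig1 at 26.2, Cspg4 at 23.3, Olig2 at 6.24 and Lhfpl3 at 3.57 RPKM. Adipose neurospheres had another order, with Cspg4 at 8.64, Olig1 at 3.78 and Ptprz1 at 2.09 RPKM, and Olig2 at 0.0128 RPKM. In bowel primary cells Ptprz1 and Cspg4 led at 7.13 and 1.90 RPKM, with the other members under 1 RPKM.

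Differences between libraries are given as log2 ratios of reads scaled by the trimmed mean of M values (TMM), with a prior count of 2, which understates ratios of low genes. Genes that reached 1 CPM in at least 1 of the 2 libraries compared count as measured, and a gene was called where the ratio reached 4-fold and no part of its counting interval lay within 2-fold.

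In bowel M2 neurospheres against bowel primary cells, 4 of 5 measured members were called higher and none lower, in a comparison where 5.89% of 15189 genes were called higher and 21.0% lower. The log2 ratio was 9.66 (interval 8.90 to 11.47) for Olig1, 9.18 (8.33 to 11.56) for Lhfpl3, 6.36 (5.78 to 7.40) for Olig2 and 2.79 (2.71 to 2.87) for Cspg4. Ptprz1, at 1.77, was short of 4-fold. The rule that chose these members used these libraries, so nothing is read from their share.

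In bowel M1 neurospheres against bowel primary cells, 5 of 5 measured members were called higher, with a background of 6.59% of genes higher and 16.4% lower. Their log2 ratios were 8.27 for Olig1, 6.41 for Lhfpl3, 5.40 for Olig2, 3.16 for Cspg4 and 2.53 for Ptprz1. Over all genes, 28.7% of the calls were higher here, and 44.7% with scaling by total counts. In tdTomato-positive spheroid cells against bowel primary cells, 4 of 5 were called higher, with a background of 6.57% of genes higher and 20.4% lower. The log2 ratios were 8.71 for Olig1, 7.60 for Lhfpl3, 4.98 for Olig2 and 3.32 for Cspg4, and Ptprz1 was at 1.83. With total-count scaling Ptprz1 was at 2.00 there and at 2.06 in M2 neurospheres, both past 4-fold, so that 5 of 5 members were then called higher in each. The 11 markers of crest and peripheral glia summed to 5594 CPM in M2 neurospheres, 3164 CPM in M1 neurospheres and 5928 CPM in tdTomato-positive spheroid cells, against 1507 CPM in bowel primary cells. None of the 11 was at 0 in these libraries, and their part in the members' ratios was not tested. Fibroblast markers summed to 518, 2342 and 968 CPM in the same 3 cultures, in that order, against 5235 CPM in bowel primary cells. Macrophage markers summed to 28.9, 1336 and 35.0 CPM, against 4215 CPM. Astrocyte and radial glia markers, with Aqp4 at 0 in the cultures, summed to 2375, 1703 and 2823 CPM, against 542 CPM. The part of these lists was not tested either.

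In adipose neurospheres against adipose primary cells, 3 members were measured. Olig1 was higher by 4.73 (4.17 to 5.70) on the log2 scale and Ptprz1 fell by 2.51 (interval -2.58 to -2.44), with a background of 5.72% of genes called higher and 20.8% lower. Cspg4, at 0.39, was not called. Olig2 and Lhfpl3 had at most 4 reads in either library. The adipose culture thus shared the higher Olig1 with the bowel cultures but had Ptprz1 in the other direction. The difference between tissues was not tested. The 11 crest glial markers summed to 3505 CPM in adipose neurospheres and 7488 CPM in adipose primary cells, with none at 0, and their part was not tested. Sums of markers of other cell types went both ways. Neuron markers summed to 840 CPM in adipose neurospheres, where Snap25 was at 0, and 92.4 CPM in adipose primary cells, where Elavl3 was at 0. In each library 4 of the 8 neuron markers reached 1 CPM. Uchl1 (502 CPM), Tubb3 (209 CPM) and Gap43 (120 CPM) gave most of the sum in adipose neurospheres. Stmn2 was at 8.28 CPM there, against 4.20 CPM in adipose primary cells. Elavl4 and Syt1 were lower in adipose neurospheres, at 0.195 CPM each, against 0.297 and 0.812 CPM. Pericyte markers summed to 805 CPM in adipose neurospheres and 522 CPM in adipose primary cells, with 7 and 10 of the 10 at 1 CPM or more. Astrocyte and radial glia markers summed to 2882 CPM in adipose neurospheres, where Aqp4 was at 0, and 822 CPM in adipose primary cells. Fewer of these 10 markers reached 1 CPM in adipose neurospheres (4) than in adipose primary cells (8), so the higher sum rests on few genes. Fibroblast markers summed to 1662 CPM in adipose neurospheres and 12030 CPM in adipose primary cells. Macrophage markers summed to 27.8 CPM in adipose neurospheres and 1667 CPM in adipose primary cells. Lymphocyte markers summed to 0.422 CPM in adipose neurospheres, where Cd79b was at 0, and 263 CPM in adipose primary cells. Endothelial markers summed to 1.10 CPM in adipose neurospheres and 163 CPM in adipose primary cells, and the part of these lists in the ratios was not tested.

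**Figure D2:**
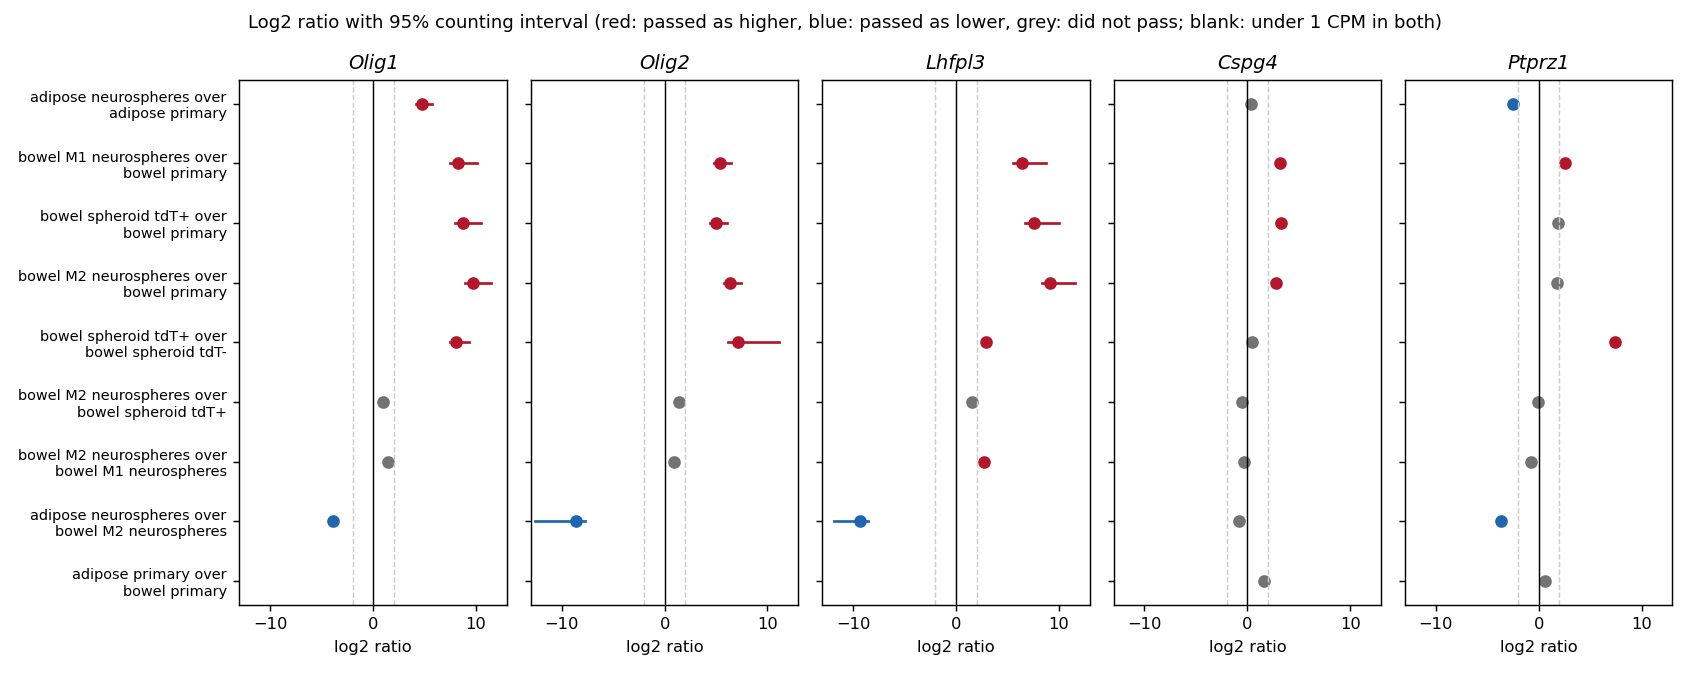
Log2 ratio of the 5 members that reached 1 CPM in the 9 comparisons, named first over second, with bars for the 95% counting interval. In bowel M2 neurospheres over bowel primary cells Olig1 lies at 9.66 and Ptprz1 at 1.77, while in adipose neurospheres over adipose primary cells Ptprz1 lies at -2.51.

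Sorting of spheroids by tdTomato separated most of the members. In tdTomato-positive against tdTomato-negative spheroid cells, 4 of 5 measured members were called higher, with a background of 6.64% of genes higher and 12.5% lower. The log2 ratio was 8.07 (7.44 to 9.29) for Olig1, 7.46 (7.23 to 7.74) for Ptprz1, 7.12 (6.18 to 11.09) for Olig2 and 2.92 (2.69 to 3.18) for Lhfpl3. Cspg4, at 0.49, was not called. All 11 markers of crest and peripheral glia were called higher in this comparison too. They summed to 5928 CPM in tdTomato-positive and 30.2 CPM in tdTomato-negative cells, none of the 11 was at 0 in either, and their part in the members' ratios was not tested.

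The 3 bowel crest cultures differed less from each other. In M2 neurospheres against tdTomato-positive spheroid cells, the sorted stage before them, no member was called, with a background of 3.07% of genes higher and 3.84% lower. Lhfpl3 was at 1.57, Olig2 at 1.38, Olig1 at 0.96, Ptprz1 at -0.06 and Cspg4 at -0.53 on the log2 scale. The sign of Ptprz1 here depended on scaling and was positive, at 0.05, with total counts. In M2 against M1 neurospheres, Lhfpl3 alone of the 5 measured members was called, with a log2 ratio of 2.77 (2.65 to 2.90) and a background of 1.20% of genes higher and 7.35% lower. Olig1 at 1.39, Olig2 at 0.96, Cspg4 at -0.37 and Ptprz1 at -0.76 were not called.

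In adipose against bowel M2 neurospheres, 4 of 5 measured members fell, with a background of 5.33% of genes higher and 8.69% lower. The log2 ratio was -9.35 (-11.82 to -8.59) for Lhfpl3, -8.59 (-12.64 to -7.74) for Olig2, -3.89 (-4.03 to -3.76) for Olig1 and -3.70 (-3.77 to -3.64) for Ptprz1. Cspg4 was at -0.77. Set against M1 neurospheres, or against tdTomato-positive spheroid cells, 4 members were again called lower and 0 higher. The share of all genes called was not counted with these other bowel libraries, so nothing is read from those counts. Crest and peripheral glial markers summed to 3505 CPM in adipose and 5594 CPM in M2 neurospheres, with none of the 11 at 0 in either, and their part was not tested. In adipose against bowel primary cells, 2 members were measured and neither was called, with a background of 7.10% of genes higher and 11.4% lower. Cspg4 was at 1.63 and Ptprz1 at 0.58.

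Because Cspg4 also marks pericytes, the 10 pericyte markers were summed: 805 CPM in adipose neurospheres, 390 CPM in M2 neurospheres, 428 CPM in M1 neurospheres and 642 CPM in tdTomato-positive spheroid cells. They summed to 955 CPM in tdTomato-negative spheroid cells, 522 CPM in adipose primary cells and 3648 CPM in bowel primary cells. Des, which smooth muscle also expresses, gave 3009 CPM of the sum in bowel primary cells and at most 113 CPM elsewhere. Pdgfrb, the growth factor receptor of pericytes and fibroblasts, had 263 CPM in adipose neurospheres, 47.3 CPM in M2 neurospheres, 145 CPM in M1 neurospheres and 107 CPM in tdTomato-positive spheroid cells. It had 531 CPM in tdTomato-negative spheroid cells, 41.5 CPM in adipose primary cells and 17.0 CPM in bowel primary cells. The single markers thus did not follow 1 order: Pdgfrb was called higher in M1 neurospheres (2.63) and tdTomato-positive spheroid cells (2.48) than in bowel primary cells, and Rgs5, a signalling regulator of pericytes, was called lower there (-7.50 and -9.52) and in M2 neurospheres (-7.41). Pdgfrb was also called higher, by 2.52, in adipose neurospheres than in adipose primary cells. The part of these markers in the Cspg4 ratios was not tested. Higd1b was at 0 in M2 and M1 neurospheres, and no pericyte marker was at 0 elsewhere.

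To set the members beside the rest of the lineage, 33 other precursor genes were counted. List medians here and below were the same with genes at 0 reads in a library set to their bound. In M2 neurospheres against bowel primary cells, 9 of 30 measured were called higher and 6 lower. The background was 5.89% of genes higher and 21.0% lower. The median log2 ratio was 0.93 against -0.07 for all measured genes. The 9 included Gpr17, a receptor of committed precursors, at 5.86, Mmp15, a membrane protease, at 4.52, Sox2 at 3.17, C1ql1, a secreted C1q-like protein, at 2.93 and Sox10, the crest and glial regulator, at 2.47. Pdgfra, the growth factor receptor that defines precursors in the brain and is also abundant in fibroblasts, fell by 5.11 on the log2 scale, to 2.42 CPM in M2 neurospheres, against 69.3 CPM in bowel primary cells. Pdgfra was highest in tdTomato-negative spheroid cells, at 576 CPM, where the 8 fibroblast markers, of which it is one, summed to 24870 CPM.

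In M1 neurospheres 13 of 31 measured precursor genes were called higher and 4 lower than in bowel primary cells (median 1.82 against -0.07). The background there was 6.59% of genes higher and 16.4% lower. In tdTomato-positive spheroid cells 9 of 30 were higher and 9 lower (0.58 against -0.03), beside 6.57% and 20.4% of all genes. In tdTomato-positive against tdTomato-negative spheroid cells, 15 of 23 were higher and 3 lower (2.75 against 0.01), beside 6.64% and 12.5% of all genes. Gpr17 had 561 CPM in M2 neurospheres, 698 CPM in M1 neurospheres and 175 CPM in tdTomato-positive spheroid cells, and at most 7.89 CPM in the other 4 libraries. The 2 adipose libraries gave another picture. In adipose neurospheres against adipose primary cells 2 of 25 measured genes were higher and 12 lower (median -1.90 against -0.01). The background there was 5.72% of genes higher and 20.8% lower. Against M2 neurospheres 0 of 26 were higher and 15 lower (-3.30 against -0.01), beside 5.33% and 8.69% of all genes. Sox10 and Sox2 were present in adipose neurospheres at 632 and 131 CPM, while Gpr17 had 0.941 CPM.

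Of 25 genes of myelinating oligodendrocytes, 3 of 21 measured were called higher and 6 lower in M2 neurospheres than in bowel primary cells (median -0.34 against -0.07). The background was 5.89% of genes higher and 21.0% lower. Of the 3, the myelin lipid enzyme gene Ugt8a was at 5.94 and the glial connexin gene Gjc3 at 2.54. Opalin, which encodes an oligodendrocyte membrane protein, had 95 reads in M2 neurospheres and 0 in bowel primary cells, at least 22.9-fold higher against a floor of 3 reads per library. The myelin genes Mal and Mag were called lower, at -4.40 and -3.54, and Mog was at -5.69 (-9.84 to -4.91), on 2 reads in M2 neurospheres and 160 in bowel primary cells. Ermn had 0 reads in all 7 libraries, and Mobp had reads in adipose primary cells alone, at 0.0312 CPM. Mag and Mal are also in the list of Schwann cell myelin genes. In adipose neurospheres against adipose primary cells 0 of 18 were higher and 10 lower (-2.36 against -0.01), beside 5.72% and 20.8% of all genes.

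**Figure D3:**
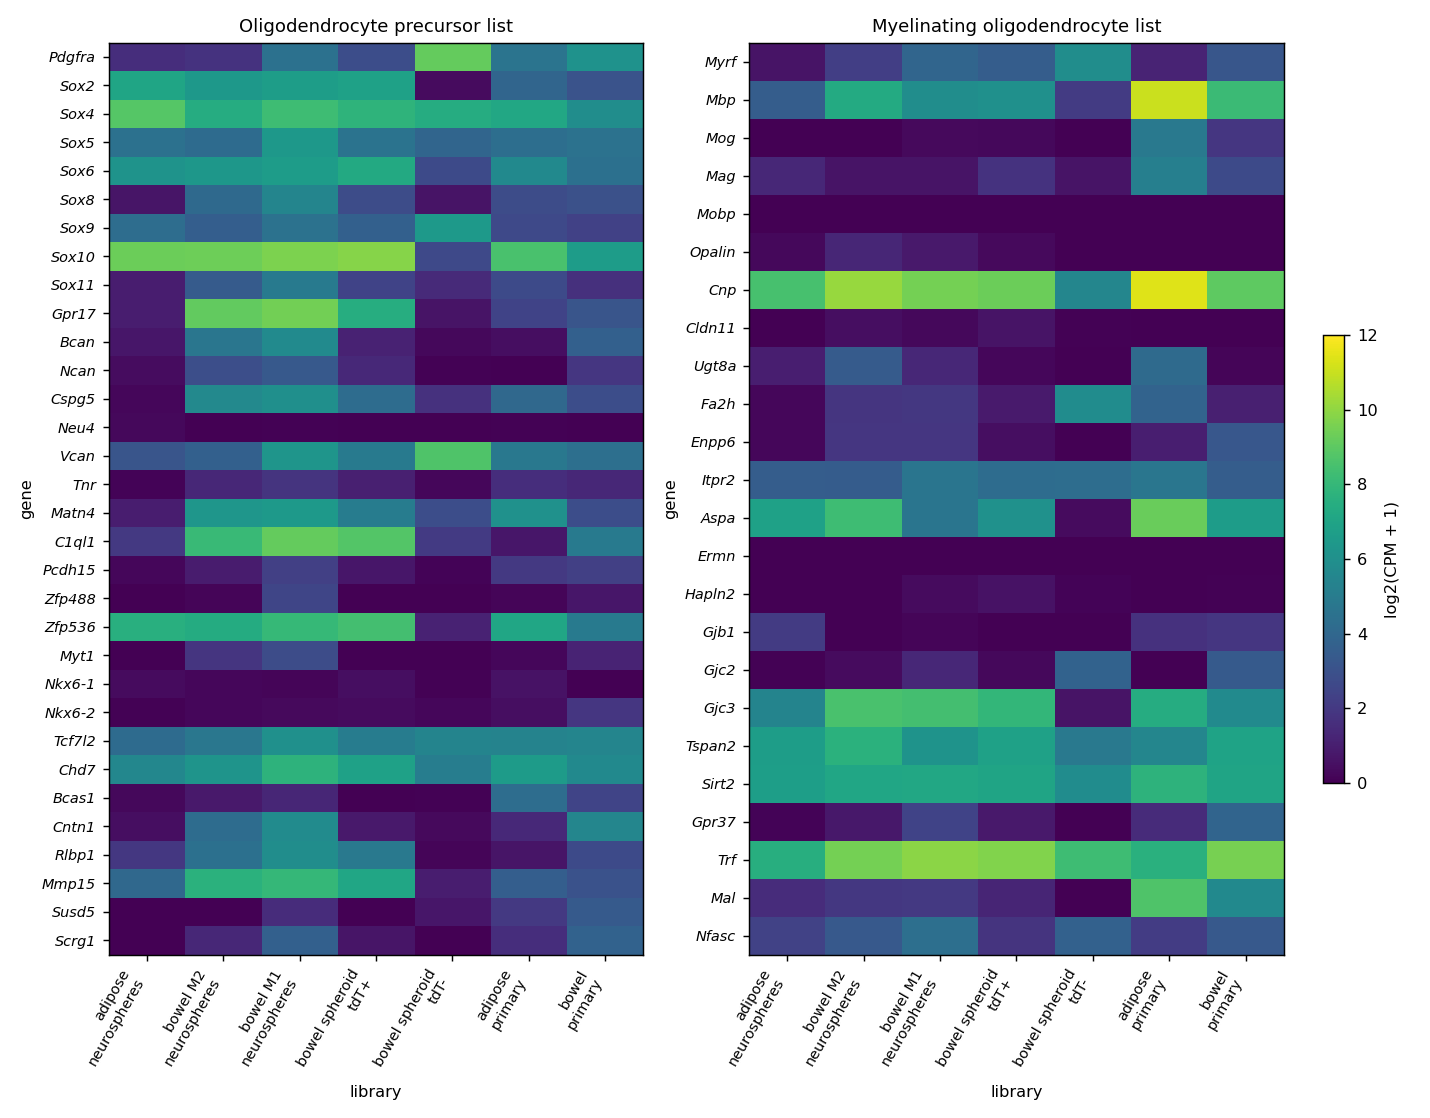
Level of genes of the precursor list and of the myelinating oligodendrocyte list in the 7 libraries, as log2 of CPM plus 1. Gpr17 and C1ql1 are high in the bowel crest cultures and low in adipose neurospheres, and Ermn is at 0 throughout.

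The pathway that turns on Olig genes in the spinal cord was followed with 14 hedgehog genes. Shh, the ligand of the ventral neural tube, had 0 reads in 6 libraries and 0.0312 CPM in adipose primary cells. Dhh, the ligand made by Schwann cells, had 80.9 CPM in adipose neurospheres, 57.2 CPM in M2 neurospheres, 62.6 CPM in M1 neurospheres and 54.7 CPM in tdTomato-positive spheroid cells. It had 0.819 CPM in tdTomato-negative spheroid cells, 147 CPM in adipose primary cells and 12.9 CPM in bowel primary cells. The receptor and target Ptch1 was called higher in M2 neurospheres (2.94), M1 neurospheres (2.99) and tdTomato-positive spheroid cells (2.55) than in bowel primary cells. The inhibitor Hhip was called higher too, at 4.80, 5.16 and 2.06. The target Gli1 was called lower in all 3, with 0 reads in M2 neurospheres, 1 in M1 neurospheres and 0 in tdTomato-positive spheroid cells, against 66 in bowel primary cells. In all, 3 of 11 measured hedgehog genes were higher and 2 lower in M2 neurospheres (median 0.26 against -0.07), beside 5.89% and 21.0% of all genes.

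Olig factors pair with E proteins and are opposed by Id proteins. Of 14 such partners and inhibitors, including the upstream BMP genes, 13 were measured in M2 neurospheres against bowel primary cells. There 1 was called higher and 2 lower (median -0.75 against -0.07), beside 5.89% and 21.0% of all genes. The E protein gene Tcf12 was the higher one, with 465 CPM in M2 neurospheres against 77.4 CPM in bowel primary cells. Bmp2 and the BMP antagonist Nog were the lower ones, at -2.95 and -6.11. In adipose against M2 neurospheres 13 were measured, with a median of 0.48 against -0.01 for all genes. The background there was 5.33% of genes higher and 8.69% lower. Id3 was called higher by 2.40, with 933 CPM in adipose and 192 CPM in M2 neurospheres. Bmp4 fell by 4.69 on the log2 scale in that comparison. The part of these genes in the Olig levels was not tested.

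Of 9 ligands and contacts of Ptprz1, 2 were called higher and none lower in M2 neurospheres than in bowel primary cells (median 0.13 against -0.07). The background was 5.89% of genes higher and 21.0% lower. The 2 higher ones were the matrix protein gene Tnc at 2.74 and the adhesion gene Nrcam at 3.73. In adipose neurospheres against adipose primary cells, where Ptprz1 fell, the ligand gene Ptn also fell by 5.61 on the log2 scale, to 5.39 CPM in adipose neurospheres, against 239 CPM in adipose primary cells. In that comparison 1 of the 9 was called higher and 4 lower (median -1.71 against -0.01), beside 5.72% and 20.8% of all genes. Their part in the Ptprz1 ratio was not tested.

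Among close relatives, Olig3 had 0 reads in all 7 libraries. Of the 9 Nkx genes listed, Nkx2-3 alone passed 10 CPM, with 35.3 CPM in tdTomato-negative spheroid cells and 28.2 CPM in bowel primary cells. The Lhfpl3 relatives Lhfp and Lhfpl2 were at 113 CPM or more and at 60.8 CPM or more in every library. Lhfpl1 was called higher than in bowel primary cells, where it had 0 reads, in M2 neurospheres on 557 reads, in M1 neurospheres on 365 reads and in tdTomato-positive spheroid cells on 85 reads. Against a floor of 3 reads per library it was at least 134-fold, 98.4-fold and 22.4-fold higher in these 3 cultures. Unlike Lhfpl3, Lhfpl1 was called lower in tdTomato-positive than in tdTomato-negative spheroid cells, at -4.35 on the log2 scale, at 1.32 CPM in tdTomato-positive and 23.3 CPM in tdTomato-negative cells. Lhfpl5 was called lower in all 3 bowel cultures, with 30 reads in M2 neurospheres, 71 in M1 neurospheres and 0 in tdTomato-positive spheroid cells, against 2212 reads in bowel primary cells. The Ptprz1 relative Ptprg was at 244 CPM in M1 neurospheres and never under 12.9 CPM.

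The neighbours of Olig1 and Olig2 on chromosome 16 were counted in the same comparisons. Of 24 other counted genes within 500 kb, 21 were measured in M2 neurospheres against bowel primary cells, and 1 was called higher and 2 lower, with a background of 5.89% of genes higher and 21.0% lower. The higher one, Gm9881, lies at -58.7 to -53.9 kb from the start of Olig2, and had 1.16 CPM in M2 neurospheres and 0 reads in bowel primary cells. The lower ones were Mrap and 4932438H23Rik. In tdTomato-positive against tdTomato-negative spheroid cells, 19 neighbours were measured, of which Eva1c was called higher and Mrap and 4932438H23Rik lower, beside a background of 6.64% higher and 12.5% lower.

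**Figure D4:**
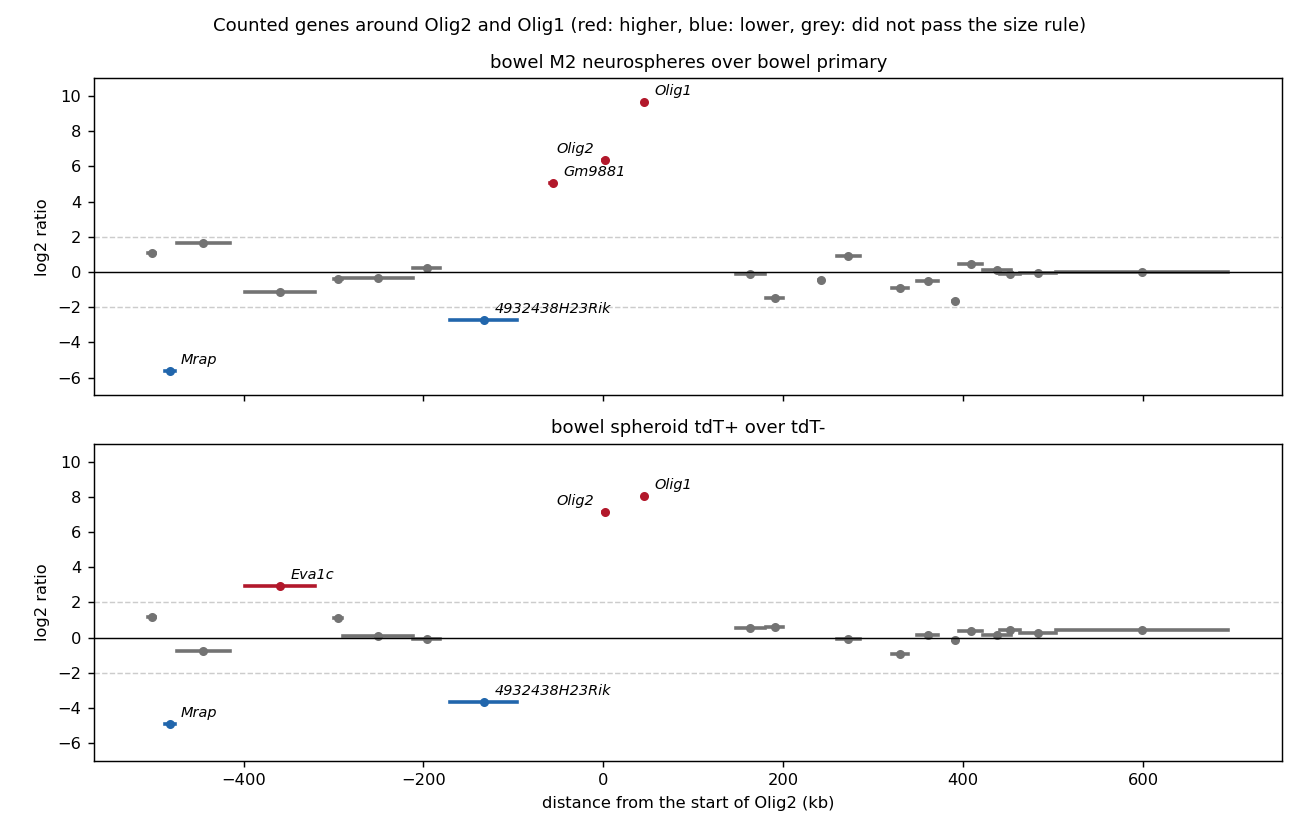
Log2 ratio of each measured gene against its distance in kb from the Olig2 start, with bars for the length of the gene, for M2 neurospheres over bowel primary cells and for tdTomato-positive over tdTomato-negative spheroid cells. In the M2 panel Olig1 lies at 9.66 and Olig2 at 6.36, and Gm9881, with 0 reads in bowel primary cells, is the only other gene called higher.

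Genes of like pattern were ranked by the root mean square difference of log2 scaled levels over the 7 libraries, each gene centred on its mean, among the 12216 genes that reached 10 CPM anywhere. The nearest to Olig2 were C1ql1 (0.986), the sodium leak channel gene Nalcn (1.16) and Gpr17 (1.18), of which C1ql1 and Gpr17 are precursor genes counted above. Nearest to Ptprz1 were the glial calcium-binding protein gene S100b (0.574), Vmn1r181 (0.700) and Gjc3 (0.737). Olig1 had Hspb3 (1.44), Pcdh8 (1.65) and Greb1 (1.84) as its nearest genes, and Olig2 was at place 20 for it. For Lhfpl3 they were Dio2 (1.69), Kif26a (1.91) and Hs6st2 (1.99), with Olig2 at place 4. Cspg4 had smaller distances to its nearest genes, Snn (0.139), Slfn9 (0.259) and Med12 (0.267), and the member nearest to it, Nkx2-2, was at place 9998. Distances were not scaled to the spread of each gene, and Cspg4 had the narrowest fold range of the measured members. Its distances are therefore not read as closer likeness than those of other members. The nearest to Nkx2-2 were Kcnj12, Lratd2 and Ctsh, from counts of at most 25 reads of Nkx2-2. These distances are a description over 7 libraries of 1 study.

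**Figure D5:**
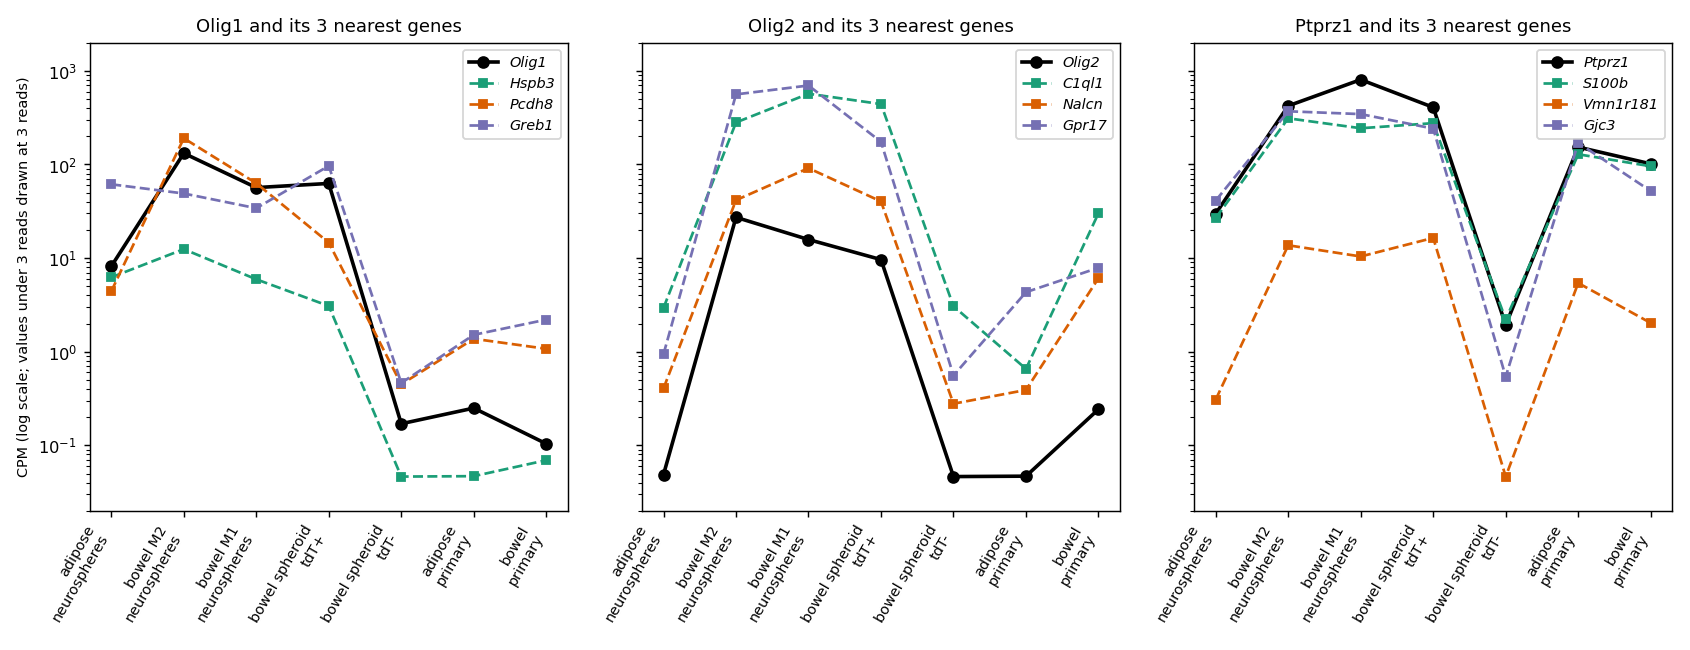
Level in CPM (log axis) of Olig1, Olig2 and Ptprz1 and the 3 genes nearest to each in pattern, across the 7 libraries, with values under 3 reads drawn at 3 reads. C1ql1, Nalcn and Gpr17 follow Olig2 in being high in the 3 bowel crest cultures, while S100b and Ptprz1 are also high in both fresh libraries.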

How the data were processed

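Per the labels' protocols, cDNA was amplified with SMART-Seq v4, and Nextera XT was used to make the libraries. The authors deposited CPM values for each Entrez gene. The submitters' processing notes name bcl2fastq 2.17, HISAT, featureCounts and the build mm10; settings and annotation were not stated there. Within 0.05 read, 100% of values were whole multiples of 1 read's CPM, so reads were recovered. With 1 library a group, no count test could be run on them. Of 27179 identifiers, 25275 matched a symbol.

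TMM scaling (edgeR 4.0.16 in R 4.3.3) used the 16461 genes that reached 1 CPM anywhere. Ratios have exact conditional binomial (Clopper-Pearson) intervals, and levels exact Poisson ones. A count of 0 is bounded by 3 reads. The size rule was tested on simulated reads with counting noise only. Members, lists and alternatives were chosen with earlier results of these data known. Named genes are the 6 members, the members of the lists, and the 3 nearest in pattern to each member, without unnamed gene models. Some genes of the lists are counted but not named or reported one by one here. Named neighbours of Olig1 and Olig2 were chosen after their values were seen. Alternatives tried were total-count scaling, DESeq2 1.42.0 size factors, dropping the filter, raising it to 5 CPM, lowering the prior count to 0.5, fold rules of 2 and 8, exchanging the bowel library in the neurosphere tissue comparison, and scaling without acinar genes. Python 3.11.15 made tables and plots.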

Additional observations from a re-analysis of the deposited data

Results flagged for a closer look

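Ptprz1 moved in opposite directions between culture and fresh cells in the 2 tissues. Its log2 ratio was -2.51 in adipose neurospheres over adipose primary cells. It was 1.77 in bowel M2 neurospheres, 2.53 in bowel M1 neurospheres and 1.83 in tdTomato-positive spheroid cells over bowel primary cells, a library that the 3 bowel comparisons share. The difference was not tested, since each group has 1 library.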

How the results depend on the processing

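No paired analysis was possible because each group has 1 library. No log2 ratio of a called member changed direction under any alternative, and of the uncalled ones Ptprz1 in M2 neurospheres over tdTomato-positive spheroid cells did, at 0.05 with total counts against -0.06. With no filter, 1 member, Nkx2-2, was also called lower in M2 neurospheres over bowel primary cells and over M1 neurospheres (0 with the filter), 1 member, Olig2, was called lower in adipose over bowel primary cells, and 1, Nkx2-2, was called higher in adipose over M2 neurospheres (0 each with the filter). The 2-fold rule asked only that the interval exclude equal levels. With it, 2 members were higher in M2 neurospheres over tdTomato-positive spheroid cells, against 0 with the 4-fold rule. Counts were 2 against 1 in M2 over M1 neurospheres and 1 against 0 in adipose over bowel primary cells. Over bowel primary cells, Ptprz1 also passed the 2-fold rule in M2 neurospheres (1.77) and in tdTomato-positive spheroid cells (1.83). With an 8-fold rule, Ptprz1 was no longer called lower in adipose neurospheres over adipose primary cells (0 members). Lhfpl3 was no longer called higher in M2 over M1 neurospheres (0 members). Also short of 8-fold were Cspg4 in M2 neurospheres (2.79) and Ptprz1 in M1 neurospheres (2.53) over bowel primary cells. Lhfpl3 was short of it too in tdTomato-positive over tdTomato-negative spheroid cells (2.92). For all genes, the changed rules are given below only as ranges of counts over the 9 comparisons. Nothing is therefore read from the member counts under those rules. Scaling by total counts moved the median of all genes by more than 0.1 in 8 of the 9 comparisons, at most by 0.46 in M1 neurospheres over bowel primary cells. It moved the members' log2 ratios by -0.26 to 0.46. Over all genes, counts of calls ranged over the 9 comparisons from 929 to 4106, from 1624 to 5727 with no filter, from 514 to 2897 at 5 CPM, from 2647 to 7426 with the 2-fold rule and from 377 to 2840 with the 8-fold rule. A prior count of 0.5 in place of 2 changed no call of a member but moved their ratios on few reads, by -1.92 to 1.92: Olig2 was at -9.27 against -8.59 in adipose over M2 neurospheres and at 7.75 against 7.12 in tdTomato-positive over tdTomato-negative cells. Levels below 3 reads could not be told from 0 at this depth. Scaling without acinar genes, chosen after seeing the data, changed no count of members.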
